A study of Mus musculus with 6 samples.

Results

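Ppara and Pex11a are a nuclear receptor and one of its known target genes, and their mRNA probes were 2 of 50 on an array made mainly for circular RNAs (1797 circRNA probes). The pair was chosen by its scaled intensities in ischemic and sham cortex, with earlier results of these data known, so the differences between groups given here are descriptions and carry no test. Adult male C57BL/6J mice, with no engineered allele named, gave the ipsilateral cortex. In the tMCAO group (transient middle cerebral artery occlusion, a model of stroke) a filament closed the artery for 1 h and tissue was taken at 12 h of reperfusion. The sham group, labelled with the same 12 h, had the operation without the filament. There were 3 mice in each group and 1 Cy3 array for each mouse. Whether damaged and spared tissue were separated is not given in the sources used here, so each array reads a mixture of cortical cells.

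PPAR-alpha, the product of Ppara, is a fatty acid sensor that pairs with a retinoid X receptor and switches on genes of fatty acid uptake, mitochondrial and peroxisomal oxidation and ketogenesis. Pex11a encodes a peroxisomal membrane protein that helps peroxisomes elongate and divide, and its transcript is induced by PPAR-alpha agonists in liver. In brain, peroxisomes shorten very-long-chain fatty acids and make the first steps of plasmalogens, the ether lipids abundant in myelin.

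RNA was digested with RNase R, which removes linear RNA, before random priming and labelling. A signal at an mRNA probe is therefore what digestion left, and it is not a measure of expression. A difference between mice in digestion, in transcript level or in the number of cells of a type cannot be told apart here. Likewise, in bulk tissue fewer cells of a type and less RNA per cell cannot be told apart.

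The arrays were not alike in brightness. The 75th percentile of circRNA intensity, which was subtracted from each array to scale it, ran from 6.17 to 7.37 on the log2 scale. With 6 arrays in all, precision is limited by their number. Sham 3 stood apart from its group: over the tested circRNAs it correlated at r = 0.971, 0.958 and 0.988 with tMCAO 1, 2 and 3, and at 0.927 and 0.941 with sham 1 and sham 2, so it was nearer to each tMCAO array than to either other sham array, as a description over probes that share each array's labelling. Every sham mean given here includes it. Sham 3 and tMCAO 3 lay in array row 2 and the other 4 arrays in row 1. By array column, sham 1 lay in column 3 and sham 2 in column 4, while sham 3 and the tMCAO arrays lay in columns 1 and 2. What sets sham 1 and sham 2 apart from the other arrays thus cannot be told apart from column. Of 30 cell type markers listed, 3 had a probe. Apoe of astrocytes and Mbp of oligodendrocytes were well above background on all 6 arrays and Gabrg1, a GABA-A receptor subunit listed with neurons though astrocytes express it too, on 5. No listed marker of microglia and leukocytes, endothelium or blood had a probe, so the part of those cells in any difference was not tested.

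Both members stood clear of background on every array. Each probe was printed as 10 spots, and all 10 were well above background on each of the 6 arrays for both genes, with 0 saturated spots. After spots flagged as outliers were left out, 9 or 10 remained. The SD over spots of 1 array lay between 0.035 and 0.088 (log2) for Ppara. For Pex11a it lay between 0.066 and 0.096 on 5 arrays and was 0.18 on tMCAO 1. This is technical error of 1 hybridised sample, and spots are not replicates of a condition. Most of the differences between mice described next were larger than it.

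**Figure D1:**
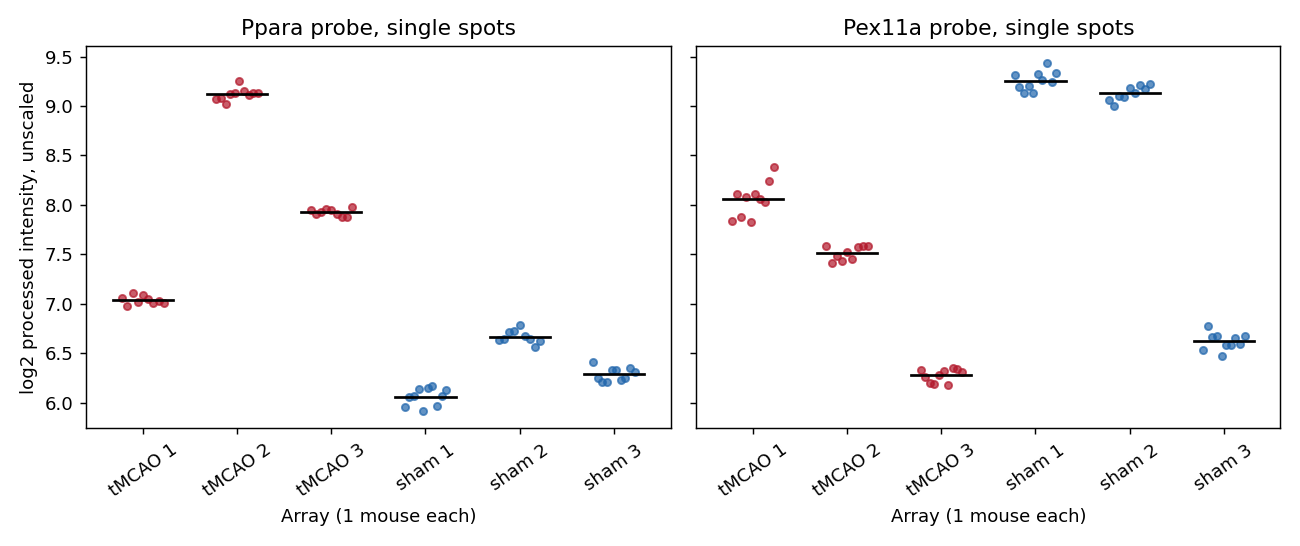
Unscaled log2 processed intensity of every spot used (points) and its mean (line) for the Ppara and Pex11a probes on each of the 6 arrays, tMCAO in red and sham in blue. Spots of 1 array lie close together, while Ppara is highest on tMCAO 2 and Pex11a on sham 1 and sham 2.

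The Ppara signal was high in 2 of the 3 ischemic cortices. Before any scaling, its mean processed intensity (geometric mean over spots) was 131, 557 and 243 on tMCAO 1, 2 and 3. On sham 1, 2 and 3 it was 66.7, 102 and 78.1. On this unscaled axis the dimmest tMCAO array was brighter than the brightest sham array, and all 10 spots of tMCAO 2 and all 9 used spots of tMCAO 3 and of tMCAO 1 were brighter than every used spot of each sham array. The median pixel signal over local background was 6.61, 21.5 and 10.4 on the tMCAO arrays, and from 3.89 to 5.06 on the sham arrays.

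Scaling changed the place of tMCAO 1. On the scaled log2 axis Ppara read -0.34, 2.69 and 1.75 on tMCAO 1, 2 and 3 and -1.03, -0.34 and -0.39 on sham 1, 2 and 3. tMCAO 2 and tMCAO 3 were far above the sham arrays, and tMCAO 1 was level with sham 2, higher by 0.0037, and with sham 3, higher by 0.051. None of the 9 used spots of tMCAO 1 was above every spot of sham 2 once scaled. Group means were 1.37 ± 1.55 for tMCAO and -0.58 ± 0.38 for sham (SD, n = 3). They differ by 1.95 ± 0.69 (SE from limma), or 3.87-fold on this scale. Within the tMCAO group, tMCAO 1 and tMCAO 2 differed by 3.02, more than the groups did.

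The sham arrays lay closer together. Sham 2 and sham 3 differed by 0.048 on the scaled axis, less than the SD of their spots, and sham 1 was 0.69 below sham 2. A position within each array that needs no scaling gave the same order of groups with a tie at the edge. Of the circRNA probes, 70.6%, 95.3% and 90.5% were dimmer than the Ppara probe on tMCAO 1, 2 and 3, and 61.1%, 70.9% and 69.9% on sham 1, 2 and 3. By this measure tMCAO 1 fell between sham 3 and sham 2, so the groups overlapped.

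Whether the Ppara groups overlap thus turned on the scaling and the background correction. Of 8 alternatives with all 6 arrays that can move its array values, 4 kept the 3 tMCAO values above the 3 sham values and 4 did not. Those 4, given as the lowest tMCAO value minus the highest sham value, were normexp background correction at -0.17, median scaling at -0.15, scaling to the other mRNA probes at -0.076 and quantile normalization at -0.0025. Of the 1334 probes tested, circRNA and mRNA together, 6.52% were higher in tMCAO without overlap and 5.4% lower, and since the contrast chose Ppara nothing is read from its place among them.

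The Pex11a signal ran another way: it was high in 2 of the 3 sham cortices. Its unscaled mean processed intensity was 612 and 561 on sham 1 and sham 2, against 98.3 on sham 3. On tMCAO 1, 2 and 3 it was 266, 183 and 77.5. Every used spot of sham 1 and sham 2 was brighter than every used spot of each tMCAO array, while sham 3 was dimmer than tMCAO 1 and tMCAO 2. Signal over local background was 21.2, 20.7 and 5.16 on sham 1, 2 and 3, and 10.9, 7.76 and 4.39 on tMCAO 1, 2 and 3.

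On the scaled log2 axis Pex11a read 0.68, 1.08 and 0.11 on tMCAO 1, 2 and 3 and 2.17, 2.13 and -0.054 on sham 1, 2 and 3. Sham 3 was the lowest of the 6 arrays, below all tMCAO arrays, so the groups overlapped. Group means were 0.62 ± 0.49 for tMCAO and 1.41 ± 1.27 for sham (SD, n = 3). The difference, tMCAO minus sham, was -0.79 ± 0.60 (SE from limma), which is 1.73-fold lower in tMCAO. That difference was smaller than the SD of the sham group. Sham 1 and sham 2 differed by 0.046, less than the SD of their spots, and sham 3 was 2.23 below sham 1.

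The size of the Pex11a difference rested on sham 3, the array that stood apart over the circRNAs too. Without sham 3 it was -1.53 ± 0.30 (SE from limma). The remaining sham arrays then lay above all tMCAO arrays, with the nearest pair, sham 2 and tMCAO 2, 1.04 apart. Without sham 3, 656 of the 1334 tested probes were without overlap between groups, so nothing is read from that of Pex11a. Without sham 1 the difference was -0.41 and without sham 2 it was -0.44. Ppara depended little on sham 3, at 2.05 ± 0.78 (SE from limma) without it. It depended more on single tMCAO arrays: 1.29 without tMCAO 2 and 2.80 without tMCAO 1.

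**Figure D2:**
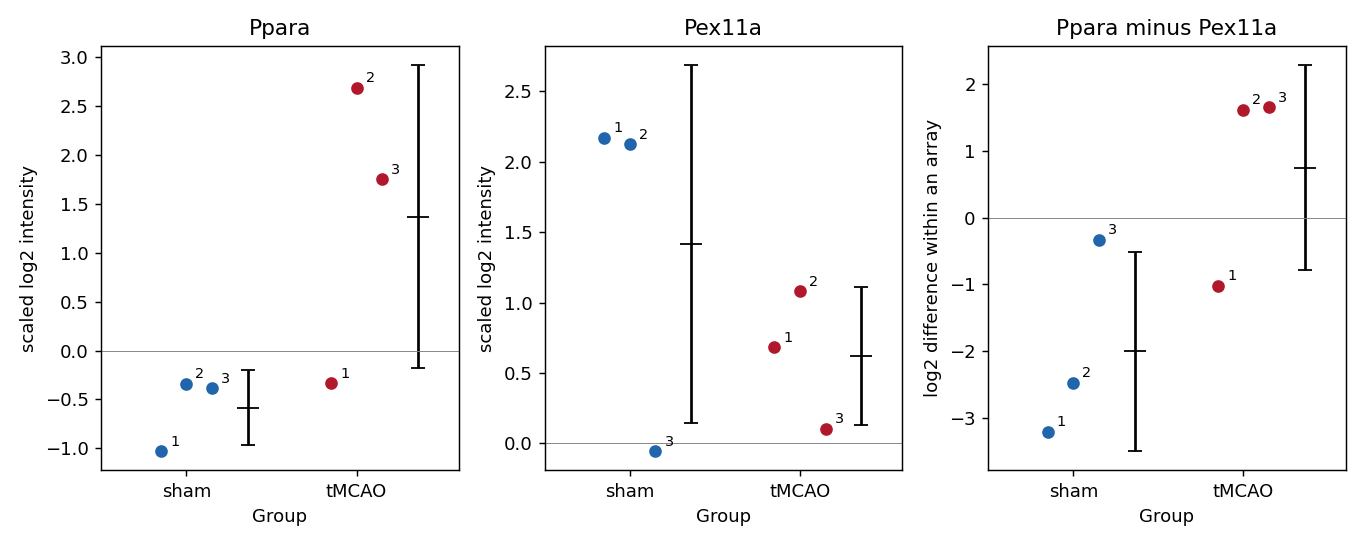
Scaled log2 intensity of Ppara (left) and Pex11a (middle) and the log2 difference Ppara minus Pex11a within an array (right), by group, with points numbered by replicate and bars giving the mean and SD (n = 3). tMCAO 1 sits at the sham level for Ppara, and sham 3 sits below all tMCAO arrays for Pex11a.

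Array row gave the members different pictures. In row 1, with 2 arrays per group, the difference between tMCAO and sham was 1.86 for Ppara and -1.27 for Pex11a. Within row 1 the groups also lay in different array columns, so column and group cannot be told apart there. In row 2, tMCAO 3 exceeded sham 3 by 2.14 for Ppara and by 0.16 for Pex11a, with 1 array per group and so no replicate check. Ppara averaged higher in tMCAO in both rows, but in row 1 the SE from limma was 0.93 and the tMCAO arrays were far apart. There tMCAO 1 was level with sham 2, higher by 0.0037, and tMCAO 2 was 3.03 above sham 2. For Pex11a the sign in row 2 was opposite to that in row 1, and before scaling tMCAO 3 was 0.34 below sham 3. Both row 2 arrays were the dimmest of their group for Pex11a, and row and mouse cannot be told apart there. Both rows held equal numbers of each group, so a row block leaves the differences as they are by construction. The SE from limma with it was 0.71 for Ppara and 0.33 for Pex11a.

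The differences of the members were compared with each other as the log2 value of Ppara minus that of Pex11a within an array, a quantity from which the array's scaling drops out. It says how the 2 probes changed against each other and not which transcript was more abundant. It was -1.02, 1.61 and 1.65 on tMCAO 1, 2 and 3. It was -3.20, -2.46 and -0.33 on sham 1, 2 and 3. tMCAO 2 and tMCAO 3 were the highest and nearly equal, sham 1 and sham 2 the lowest, and tMCAO 1 lay below sham 3, so the groups overlapped. Group means were 0.75 ± 1.53 for tMCAO and -1.998 ± 1.49 for sham (SD, n = 3), 2.74 ± 1.23 apart. This is a plain SE from the group SDs and not the SE from limma given for each member. The plain SE was 0.92 for the Ppara difference and 0.79 for that of Pex11a. Over the alternatives, which include leaving out each array, the distance of 2.74 ranged from 2.05 to 3.83. The arrays that set the 2 genes apart were not the same. On the scaled axis tMCAO 1 was level with sham 2 for Ppara. For Pex11a, tMCAO 1 was 1.44 below sham 2 and 0.74 above sham 3 on that axis. Before scaling, Ppara on tMCAO 1 was 0.37 above sham 2, its brightest sham array. Sham 3 had a low Pex11a signal with Ppara at the sham level.

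The differences over the whole table are given as background to those of the members. In limma 0 of 1334 probes passed an adjusted p of 0.05, which is 0%, and 95, or 7.12%, had an unadjusted p under 0.05. The median difference was 0.024 over all tested probes and -0.25 over the 29 tested mRNA probes, of which 9 averaged higher and 20 lower in tMCAO. A positive difference of at least that of Ppara was seen for 2 probes (0.15%), Ppara itself and ASCRMP000360, at 2.06. Negative differences as large, such as that of ASCRMP001562 at -2.06, are not in this count. A difference at or below that of Pex11a was seen for 80 probes (6%), and for 7 of the 29 mRNA probes (24.1%), Pex11a included in both. These counts use the contrast that chose the members, so nothing is read from the members' places.

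**Figure D3:**
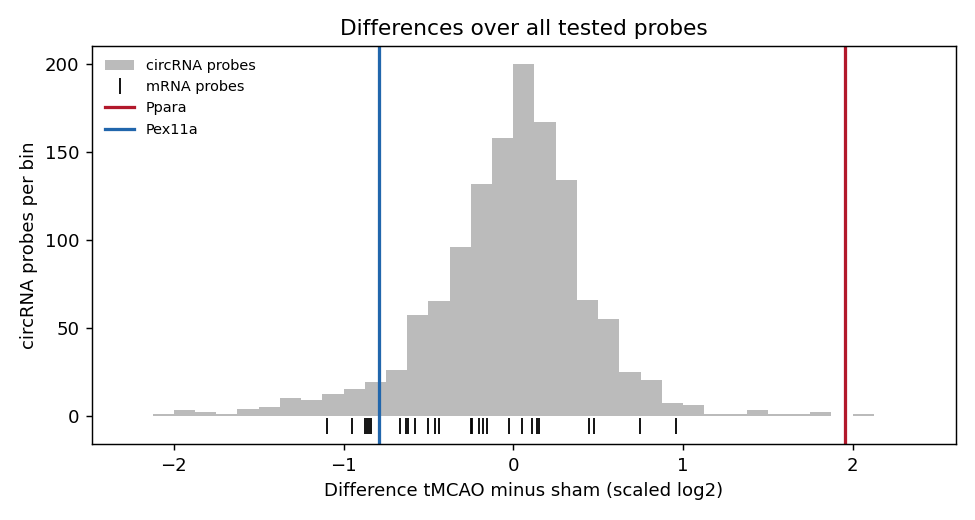
Histogram of the difference tMCAO minus sham (scaled log2) over the 1305 tested circRNA probes, with the 29 tested mRNA probes as ticks under the axis and the members as vertical lines. The lines are at 1.95 for Ppara and at -0.79 for Pex11a. The contrast shown chose the members, so nothing is read from their places.

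The rest of the pathway was hardly represented. Of 53 listed genes of PPAR signalling, fatty acid oxidation and peroxisome biogenesis, 3 had a probe. Beside the members this was Cpt1a, the enzyme that admits long-chain fatty acids to mitochondria and a PPAR-alpha target, whose probe was not well above background on any array. None of the listed retinoid X receptors, coactivators, peroxisomal oxidation enzymes or other peroxins had a probe, so no member of the pathway other than Ppara and Pex11a could be followed. In RefSeq (assembly GRCm38.p6) Pex11a overlaps the neighbouring gene Wdr93, and Ppara overlaps no other gene. Where in Pex11a its probe lies is not given in the sources used here, so a share of its signal from Wdr93 was not tested. Nor do the files pair circRNA probes with host genes, so any circRNA made from Ppara or Pex11a was not analysed here.

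Probes whose profile over the 6 arrays was most like that of a member were ranked by Pearson's r of the scaled values, as a description of 6 arrays that share 1 scan and the same scaling. For Ppara the closest were circRNAs. ASCRMP000605 had r = 0.994 and read -0.34, 2.20 and 1.57 on tMCAO 1, 2 and 3, and -0.62, -0.14 and 0.0076 on sham 1, 2 and 3. ASCRMP000360 (r = 0.992) and ASCRMP000971 (r = 0.987) followed. As for Ppara, tMCAO 2 and tMCAO 3 were the highest arrays for all 3 of them. On tMCAO 1 the 3 circRNAs were within the range of the sham arrays, while Ppara was 0.0037 above the highest of these. The mRNA probes came less near, but they were 28 candidates against 1305, so the top r values do not compare the kinds of probe. Dnajc11, a mitochondrial DnaJ protein, had r = 0.83, the unnamed probe A_51_P237746 had 0.80 and Rps4l, a ribosomal protein gene copy with close paralogs, had 0.77. On the scaled axis the 3 were highest on the same arrays as Ppara, with smaller differences between groups, from 0.45 to 0.96. Before scaling all 3 were brightest on tMCAO 1, the array with the highest 75th percentile, at 7.37. Their likeness to Ppara thus depends on the scaling. Of 1305 circRNA probes 21 (1.61%) had r above 0.9 with Ppara, and 0 of 28 mRNA probes did.

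The profile of Pex11a was the commoner one. Of 1305 circRNA probes 107 (8.20%) and of 28 mRNA probes 6 (21.4%) had r above 0.9 with it. Among mRNA probes Anxa8, a membrane-binding annexin, had r = 0.97 and read -2.34, -1.65 and -2.43 on tMCAO 1, 2 and 3, and -0.25, -0.53 and -2.35 on sham 1, 2 and 3. Prdx2, a cytosolic peroxiredoxin, had r = 0.95. The closest circRNAs were ASCRMP000219 (r = 0.997), ASCRMP000525 (0.995) and ASCRMP000963 (0.992). All 5 of these probes were highest on sham 1 and sham 2. As with Pex11a, the 3 circRNAs were lowest on sham 3. Apoe and Gabrg1, from the cell type markers, were also highest on sham 1 and sham 2, at 1.20 and 1.25 for Apoe against 0.51 on sham 3, and at -0.91 and -1.53 for Gabrg1 against -2.50. Mbp was not: it read -1.46 and -1.72 on sham 1 and sham 2, with its highest values on sham 3 (-1.03) and tMCAO 3 (-1.15). The part of a cell type or of array column in the Pex11a values was not tested.

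**Figure D4:**
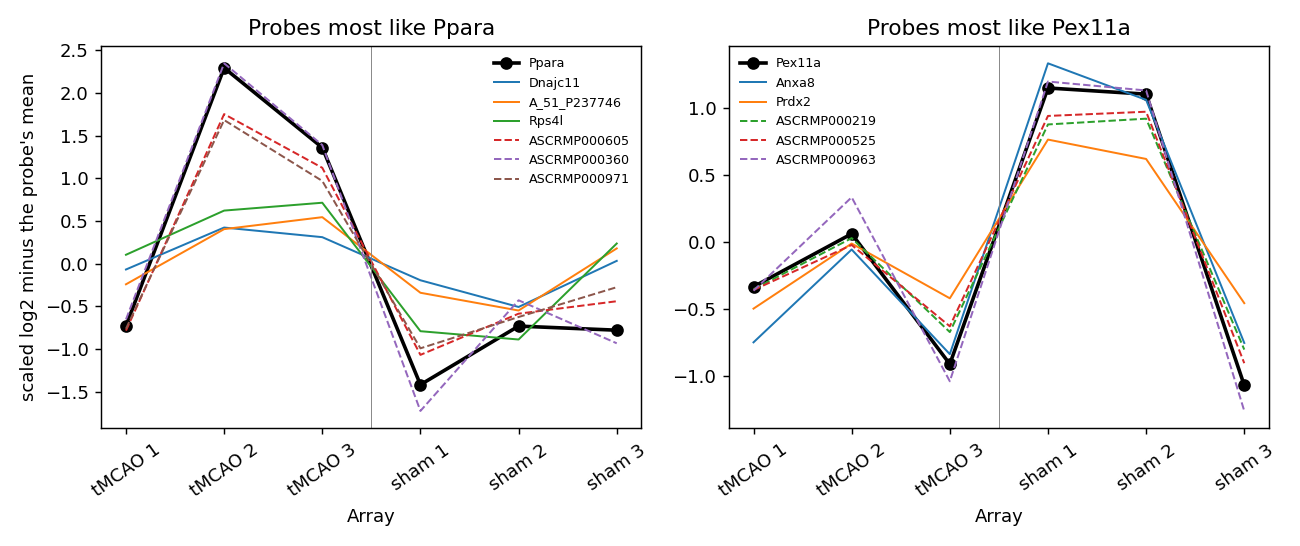
Scaled log2 intensity minus each probe's own mean over the 6 arrays, for Ppara (left) and Pex11a (right) in black, similar mRNA probes (solid; 3 for Ppara, 2 for Pex11a) and the 3 most similar circRNA probes (dashed). Probes like Ppara peak on tMCAO 2 and tMCAO 3, and probes like Pex11a peak on sham 1 and sham 2.

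Of the 21 alternatives, 16 can move the 2 differences, and the other 5, filters, choices of other probes and balanced blocks, cannot. Over those 16 Ppara stayed above 0, from 1.29 to 2.80, and Pex11a below 0, from -1.63 to -0.41. The single pair of arrays in row 2, which is not among them, put Pex11a above 0. Ppara was lowest without tMCAO 2 and nearly as low with normexp, at 1.31, where an offset of 50 is added to every spot. The difference of Pex11a was largest with array weights, at -1.63, where sham 3 had the lowest weight, 0.29.

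**Figure D5:**
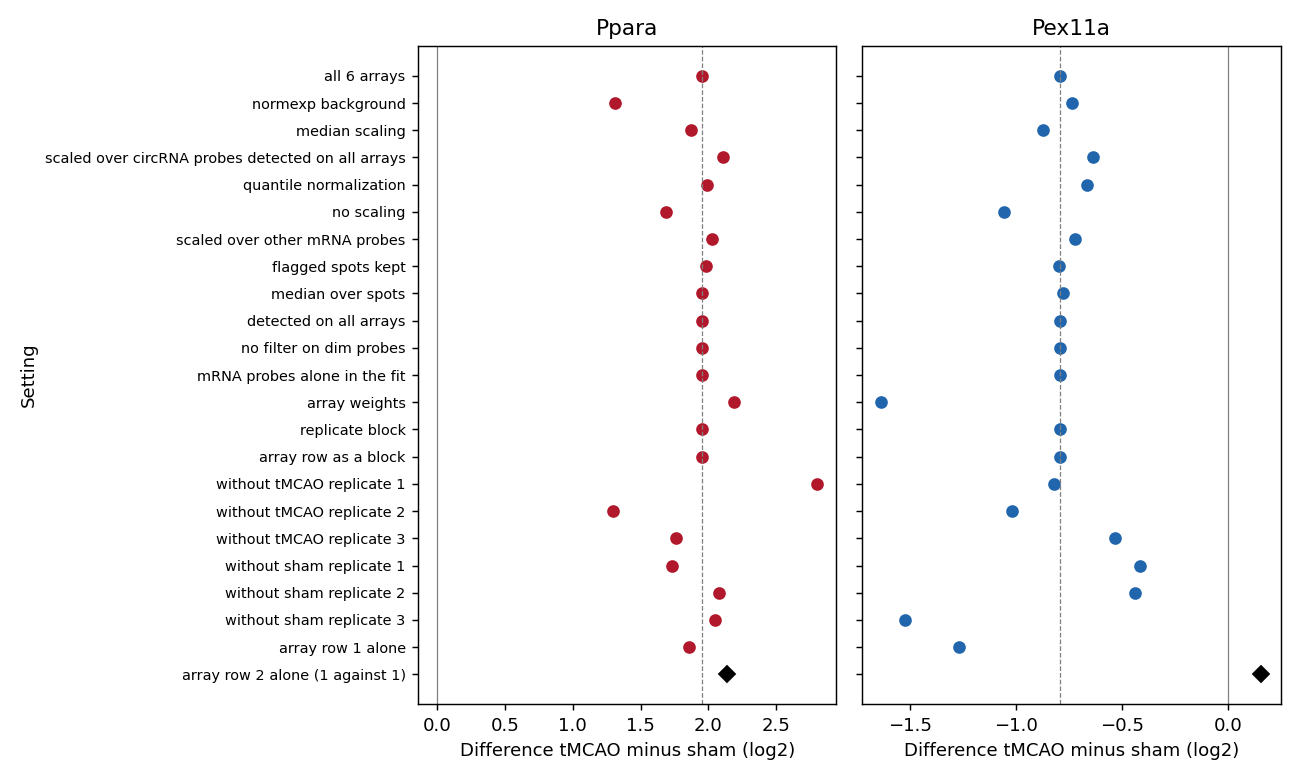
Difference tMCAO minus sham (log2) for Ppara (left) and Pex11a (right) with all 6 arrays, under each alternative, and as a diamond for the 1 pair of arrays in row 2. The dashed line marks the value with all 6 arrays, 1.95 and -0.79, and the solid line marks 0.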

How the data were processed

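The authors deposited linear intensity values for each spot, made with Feature Extraction version 11.0.1.1 per the file headers, with background subtracted and arrays left unscaled. Deposited flags and spot positions were the other columns used. Per the file headers, the design's build is mm9.

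Log2 processed intensities were averaged over unflagged spots of a probe, less the 75th percentile over circRNA probes on the same array. A probe was tested when over 0.5 of its spots were well above background on at least 3 of 6 arrays, and 2 probes with a missing value were left out. All 1334 probes entered 1 fit (lmFit and eBayes of limma 3.58.1 in R 4.3.3; two-sided, with Benjamini-Hochberg adjustment), tried on simulated data. The mRNA probes were named by accession through RefSeq, which matched 44 of 50. No pair of arrays shared identical spot values (0%).

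The members and lists were chosen with earlier results of these data known. Named besides the members were the 3 mRNA and 3 circRNA probes most correlated with each, of which 1 mRNA probe is not reported here. Probes with r above 0.9, the array row and column, the differences of ASCRMP000360 and ASCRMP001562 and the markers' profiles were looked at after seeing the data. P-values set a difference against the spread between these mice, moderated over all tested probes. With 1 array for each mouse, that spread also holds differences between arrays. Other background corrections, scalings, spot rules, filters, weights, blocks and left-out arrays were run as alternatives.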

Additional observations from a re-analysis of the deposited data

How the results depend on the processing

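The sign was kept in all 16 of 21 alternatives that can move Ppara or Pex11a, and in all 12 that can move Ppara minus Pex11a, in which scaling by 1 value per array cancels. With 1 array left out Ppara ranged from 1.29 to 2.80, Pex11a from -1.53 to -0.41 and Ppara minus Pex11a from 2.14 to 3.63. With the replicate block the 3 values were 1.95, -0.79 and 2.74, as a balanced block fixes, and 0 probes passed the adjusted threshold in limma. Same-numbered arrays deviated at r = -0.15, 0.47 and 0.18, so the numbers were not taken as pairing. Probes without overlap numbered 159 of 1334. Of the same 1334 they became 48 with no scaling and 85 when scaled over other mRNA probes. With no filter they were 254 of 1845, and among the mRNA probes 2 of 29. Fewer arrays make overlap rarer. Of 1334 probes, 767 were without overlap in row 1 alone. With a single array dropped the number was from 205 to 656, the 656 without sham 3. Probes with an adjusted p under 0.05 (limma) became 6 with no scaling, 239 with array weights and 0 to 124 with 1 array left out, the 124 without sham 3. Apart from the number of arrays or probes, the cause was not tested. All arrays came from 1 scan, so slide or scan could not be a block. The use of row 1 alone was chosen after seeing the data. Mean pixel signal was not used here, and normexp took the median pixel signal.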
